A study of Mus musculus with 6 samples.

Results

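Interferon-stimulated genes were followed in RNA of whole lung from 6 mice, all female and of strain FVB/N, with 1 Affymetrix mouse expression array per mouse. The set was a list of 37 genes induced by type I or type II interferon, without antigen-processing genes and chemokines, and a probe set counted where the platform annotation gave it exactly 1 of these symbols. That rule found 55 of 45101 probe sets, which read 34 of the 37 genes, among 18193 genes with such a probe set in all. Tgtp1 and Isg15 were read only by probe sets shared with another gene and Ifi44 by none listed here, so these 3 have no value. The group as a whole was chosen by its measured values: in earlier results of these same arrays, interferon-stimulated genes read lower in lungs of mice with high right ventricular systolic pressure (RVSP). All differences below therefore describe these 6 mice and carry no test of their own.

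The study asked what the BMPR2-R899X mutation, a truncation of the receptor BMPR2 for bone morphogenetic proteins, does in lung with and without raised pressure. The 2 R899X high RVSP mice and the 2 R899X normal RVSP mice were heterozygous for SM22-rtTA and TetO7-BMPR2-R899X, and differed in RVSP at death, which was substantially raised in one group and near normal in the other. The 2 control mice carried SM22-rtTA without the mutant transgene. SM22-rtTA is a doxycycline-dependent transactivator under the promoter of the smooth muscle gene Tagln, so the transgene acts in cells that use that promoter, while the RNA came from all cells of the flushed right lung. All mice, controls included, received doxycycline for 9 weeks from an age of 4 weeks and were killed at 13 weeks.

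Interferons act through pairs of receptors and JAK kinases. Type I interferons turn on antiviral genes through the interferon-stimulated response element (ISRE), with Stat2 and Irf9 among the factors involved. Type II interferon, interferon gamma, which natural killer (NK) and T cells release, acts through the gamma-activated site (GAS), and in mice it strongly induces the immunity-related GTPases and guanylate-binding proteins that attack the vacuoles of intracellular microbes. Many genes of both branches also answer to Irf1, which binds ISRE-like sites.

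Promoter windows were searched for the letters of the sites through which interferon signals act. Windows of RefSeq genes (mouse GRCm38.p6, strain C57BL/6J, from 250 bases before to 50 bases after the start site, 300 bases each) existed for 28 of the 37 genes, some with more than 1 start. The search looked for an ISRE-like motif, GAAANNGAAA, on both strands, and for a GAS-like motif, TTCNNNGAA, which reads the same on both. Matches of either motif may overlap. An ISRE-like match lay in 5 of the 6 GTPase genes with a window and in 9 of the 14 antiviral genes, against 3.44% of all 32851 windows. A GAS-like match lay in 2 of the 6 GTPase genes, Igtp and Tgtp1, and in 4 of the 14 antiviral genes, against 8.3% of all windows. Igtp and Tgtp1, with both motifs, share this with 0.454% of windows, and among the antiviral genes Oas1a and Bst2 do so too. A match is a string of letters and not evidence of a bound site. For Iigp1, Oas2, Mx1, Mx2, Dhx58, Zbp1, Usp18, Rtp4 and Parp14 no window was used.

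The windows below are those of 3 GTPase genes whose intensities moved together over the 6 mice, of the regulator Irf1, and of 2 antiviral genes, Ifit1, which varied less than the GTPases, and Rsad2, which took a course of its own. Each runs 5′ to 3′ on the gene's strand, and capitals mark the ISRE-like and GAS-like matches. Igtp lies at chr11:58199306-58199605 on the plus strand, Irgm1 at chr11:48871371-48871670 on the minus strand and Gbp2 at chr3:142620413-142620712 on the plus strand. Irf1 lies at chr11:53769764-53770063 on the plus strand, Ifit1 at chr19:34640639-34640938 on the plus strand and Rsad2 at chr12:26456403-26456702 on the minus strand.
Igtp: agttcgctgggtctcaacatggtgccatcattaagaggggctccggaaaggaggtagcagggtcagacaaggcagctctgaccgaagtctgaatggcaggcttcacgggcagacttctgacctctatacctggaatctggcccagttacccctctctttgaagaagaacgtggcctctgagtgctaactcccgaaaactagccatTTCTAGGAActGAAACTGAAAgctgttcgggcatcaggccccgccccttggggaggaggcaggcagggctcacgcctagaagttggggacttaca
Irgm1: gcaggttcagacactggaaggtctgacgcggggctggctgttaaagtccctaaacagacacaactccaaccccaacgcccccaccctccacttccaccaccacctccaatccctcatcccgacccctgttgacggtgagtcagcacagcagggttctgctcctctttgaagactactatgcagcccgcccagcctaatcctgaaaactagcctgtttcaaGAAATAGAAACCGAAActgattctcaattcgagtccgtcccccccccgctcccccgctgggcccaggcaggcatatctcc
Gbp2: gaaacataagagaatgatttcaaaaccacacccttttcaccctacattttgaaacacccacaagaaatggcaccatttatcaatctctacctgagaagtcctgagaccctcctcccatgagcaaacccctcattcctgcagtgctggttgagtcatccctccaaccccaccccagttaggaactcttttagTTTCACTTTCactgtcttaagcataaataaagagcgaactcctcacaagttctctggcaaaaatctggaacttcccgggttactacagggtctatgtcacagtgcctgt
Irf1: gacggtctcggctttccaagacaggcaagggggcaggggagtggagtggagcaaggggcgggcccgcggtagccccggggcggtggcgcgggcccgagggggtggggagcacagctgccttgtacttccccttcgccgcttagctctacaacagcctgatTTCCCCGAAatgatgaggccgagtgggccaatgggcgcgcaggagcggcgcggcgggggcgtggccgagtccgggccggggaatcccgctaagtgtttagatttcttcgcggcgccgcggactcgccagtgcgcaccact
Ifit1: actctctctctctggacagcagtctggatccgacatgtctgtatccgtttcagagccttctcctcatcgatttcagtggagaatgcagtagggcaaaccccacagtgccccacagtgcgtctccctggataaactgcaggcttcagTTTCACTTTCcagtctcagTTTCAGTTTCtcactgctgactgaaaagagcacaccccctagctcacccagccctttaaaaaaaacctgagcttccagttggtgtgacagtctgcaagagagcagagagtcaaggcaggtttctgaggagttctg
Rsad2: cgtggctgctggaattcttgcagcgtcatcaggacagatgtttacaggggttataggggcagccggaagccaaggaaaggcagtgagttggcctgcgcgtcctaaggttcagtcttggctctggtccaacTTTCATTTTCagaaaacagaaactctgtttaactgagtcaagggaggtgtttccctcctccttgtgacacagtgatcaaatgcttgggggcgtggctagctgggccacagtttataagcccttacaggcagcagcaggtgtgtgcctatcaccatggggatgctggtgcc
In Igtp the GAS-like match starts 45 bases before the start site and the ISRE-like match 34 bases before it. Irgm1 has overlapping ISRE-like matches that start 30 and 24 bases before the start site, and Gbp2 has a single one at 59 bases, on the opposite strand. In Irf1 the capitals mark a GAS-like match alone, 90 bases before the start site. The ISRE-like matches of Ifit1 start 104 and 85 bases before the start site and that of Rsad2 120 bases before it, all on the opposite strand.

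Median array intensity was between 128 and 141. Control 1 and R899X normal RVSP 1 stood apart, with mean log2 distances of 0.497 and 0.492 to the other arrays, against at most 0.420 for the rest, and with 3′/5′ intensity ratios of the beta-actin control probe sets of 1.89 and 1.64, against 1.27 to 1.45. R899X normal RVSP 2 had a ratio of 1.31 and control 2 of 1.45, so this ratio differed within both pairs. The same ratio for Gapdh did not run with it: it was lowest in R899X normal RVSP 1, at 0.700, and highest in control 2, at 1.03, against 0.973 in control 1. The labelled tissue was borne out by its defining markers: Sftpc, a surfactant protein of alveolar type 2 cells, lay between 26212 and 40876, and Scgb1a1, of airway club cells, between 33258 and 51443.

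The interferon-inducible GTPases varied more than any other role group within the set of 37 genes, and the 6 measured genes did so together. They were lower in both R899X high RVSP mice than in both R899X normal RVSP mice, by a median log2 difference of -1.17, that is at 0.445 of the level. Of all probe sets above a filter on dim values, 15.5% were likewise lower without overlap. Within each of the 6 genes control 1 had the highest intensity, R899X normal RVSP 2 the second and R899X normal RVSP 1 the third, while control 2 lay with the high RVSP mice.

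Igtp and Irgm1 are immunity-related GTPases of the regulatory type, which sit on the cell's own membranes and keep the other members inactive there. Igtp had intensities of 868 and 1063 in R899X high RVSP, 2210.0 and 3676 in R899X normal RVSP and 5964 and 1085 in control lungs. Irgm1 had 633 and 809 in R899X high RVSP, 1407 and 1837 in R899X normal RVSP and 2762 and 663 in control lungs. Both genes thus showed the high RVSP mice and control 2 at a low level, and the normal RVSP mice between these and control 1. The log2 differences of high against normal RVSP were -1.55 ± 0.65 for Igtp and -1.15 ± 0.54 for Irgm1, where values after ± are standard errors from limma on log2(intensity + 16).

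Iigp1 and Ifi47 belong to the effector type of the same family, which is loaded onto parasite vacuoles. The brighter probe set of Iigp1 read 1266 and 1692 in R899X high RVSP, 2594 and 5528 in R899X normal RVSP and 9528 and 1371 in control lungs. For Iigp1 the log2 range over the mice, 2.90, was the widest of the 34 genes by their brightest probe sets. Its second probe set read 614 and 764 in R899X high RVSP, 1124 and 2671 in R899X normal RVSP and 2890.0 and 605 in control lungs and gave the same order in the first 3 places. Ifi47 had 1294 and 1668 in R899X high RVSP, 2934 and 3862 in R899X normal RVSP and 5524 and 1718 in control lungs. For high against normal RVSP the log2 differences were -1.36 ± 0.76 for Iigp1 and -1.19 ± 0.46 for Ifi47.

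Gbp2 and Gbp3 are guanylate-binding proteins, larger GTPases that coat bacteria and vacuoles. Gbp2 read 1975 and 2717 in R899X high RVSP, 3170.2 and 4887 in R899X normal RVSP and 5571 and 2084 in control lungs. Gbp3 read 599 and 717 in R899X high RVSP, 991 and 1809 in R899X normal RVSP and 1888 and 719 in control lungs. Their spans, 2.82-fold and 3.15-fold, were the narrowest of the GTPase group, and their log2 differences of high against normal RVSP were -0.76 ± 0.42 and -1.01 ± 0.44. A second probe set of Gbp2 also read lower in both high RVSP mice, with 1870.0 and 2343 in R899X high RVSP, 3342 and 4570.4 in R899X normal RVSP and 5068 and 2217 in control lungs.

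**Figure D1:**
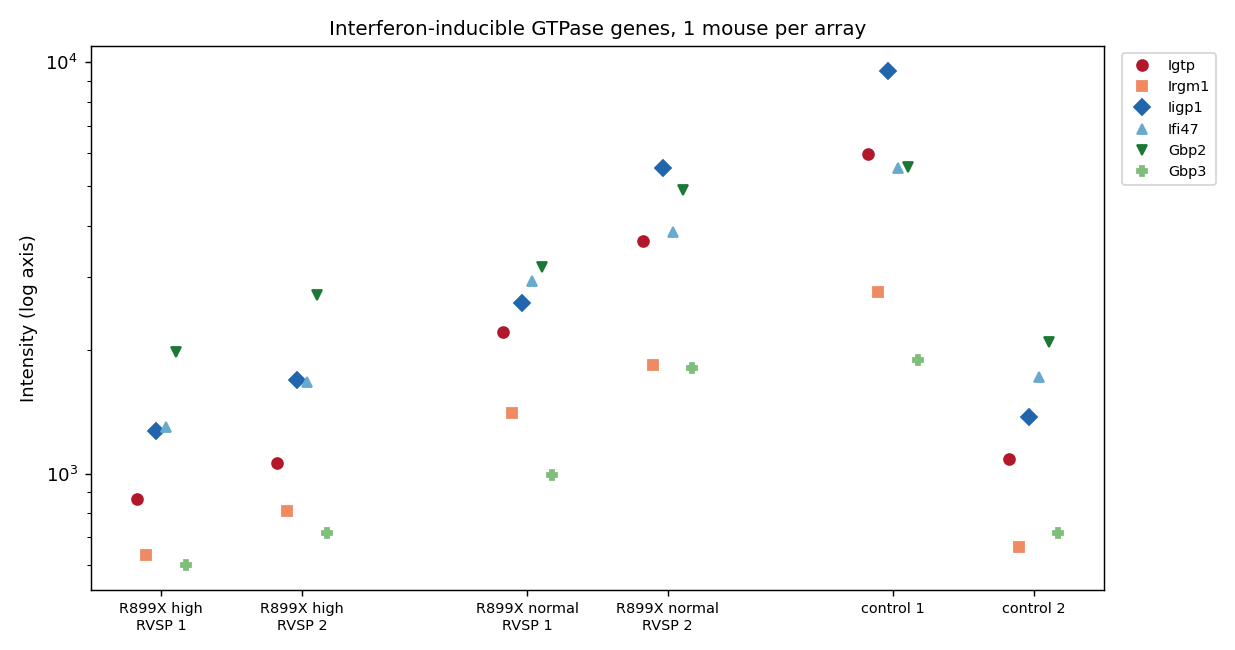
Intensity (log axis) of the 6 measured GTPase genes on each of the 6 arrays, 1 point per gene and mouse, set apart sideways for legibility. In every gene control 1 is highest, for Iigp1 at 9528, and control 2, for Iigp1 at 1371, lies close to the R899X high RVSP mice at 1266 and 1692.

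The pair of control mice differed more in these genes than the groups did. Control 1 exceeded control 2 by 1.37 to 2.78 on the log2 scale in the 6 genes, from 2.63-fold for Gbp3 to 6.95-fold for Iigp1. In 6 of 6 genes this distance was larger than each of the 3 differences between group means. The same held for 9 of the 18 antiviral genes and for 20 of all 34 measured genes. Distances between single mice tend to exceed distances between group means, and the share over all probe sets was not counted. These counts are therefore description only. Over all 27022 probe sets above the filter on dim values, the median absolute distance between the controls was 0.266. The log2 range over the 6 mice exceeded 1.535, the 95th percentile of all those probe sets, in 5 of the 6 GTPase genes, Gbp2 being the exception at 1.49, and the median range of all was 0.610.

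Antiviral effectors spanned less, with a median log2 range of 0.87 over the 6 mice against 2.09 for the GTPases, and did not share 1 order of mice. Of the 14 measured, 11 lay above the filter, which removed probe sets in the lower 40% by mean log2 value. The ones with the widest range were Rsad2, Mx2, Oas2 and Mx1. Rsad2, the antiviral enzyme viperin, read 337 and 1764 in R899X high RVSP, 940.0 and 563 in R899X normal RVSP and 613 and 1135 in control lungs. The high RVSP mice therefore held both the lowest and the highest Rsad2 level, and in 3 of 3 probe sets of the gene. Its log2 difference of high against normal RVSP was 0.09 ± 0.67. Cmpk2, its neighbour on the chromosome and a nucleotide kinase that shares its induction, read 497 and 589 in R899X high RVSP, 648 and 775 in R899X normal RVSP and 714 and 453 in control lungs and did not follow it.

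Oas2, which makes oligoadenylates when it meets double-stranded RNA, had 90.8 and 102 in R899X high RVSP, 205 and 133 in R899X normal RVSP and 202 and 168 in control lungs. Both high RVSP mice were below the other 4, with log2 differences of -0.69 ± 0.28 from normal RVSP and -0.83 ± 0.28 from control. Oas1a, of the same family, had 310.2 and 334 in R899X high RVSP, 504 and 421 in R899X normal RVSP and 435 and 338 in control lungs, and Oasl2, a related ubiquitin-like protein, 516 and 575 in R899X high RVSP, 976 and 831 in R899X normal RVSP and 972 and 516 in control lungs. Both were lower in the high RVSP mice than in the normal RVSP mice without overlap, and control 2 lay at their level or close above it. Oasl1 went the other way, at 94.6 and 97.3 in the R899X high RVSP mice, against 87.3 and 73.3 in the R899X normal RVSP mice, close to the filter.

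Among the interferon-induced proteins with tetratricopeptide repeats, which bind foreign RNA, Ifit1 read 359.9 and 446 in R899X high RVSP, 438 and 588 in R899X normal RVSP and 732 and 408 in control lungs. Ifit2 lay between 933 and 1110 on the 6 arrays, a span of 1.19-fold and the smallest of the set. Ifit3 had 973 and 1296 in R899X high RVSP, 1428 and 1577 in R899X normal RVSP and 1285 and 1338 in control lungs, with a log2 difference of -0.41 ± 0.18 between high and normal RVSP. Ifit1 alone of the 3 was highest in control 1, as the GTPases were, and in Ifit2 and Ifit3 the controls differed by at most 0.06 on the log2 scale.

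Bst2, or tetherin, which holds budding virus at the cell surface, ranged from 373 to 714, and Samhd1, which depletes nucleotides that viruses need, from 1909.8 to 2828 in its brightest probe set. The 5 probe sets of Samhd1 did not point the same way between high and normal RVSP, with 3 of 5 lower. A probe set above the filter on the other side read 765 and 1059 in R899X high RVSP and 616 and 330 in R899X normal RVSP. It read 627 and 618 in control lungs. This probe set was higher in both high RVSP mice, with a log2 difference of 0.97 ± 0.30 from normal RVSP. Mx1, Mx2 and Oas3 lay below the filter. Mx2, a dynamin-like GTPase, read 48.9 and 83.9 in R899X high RVSP, 7.77 and 14.1 in R899X normal RVSP and 14.9 and 101 in control lungs. It was higher in both high RVSP mice than in both normal RVSP mice, and control 2 was highest. Mx1 ranged from 44.3 to 107 and Oas3 from 11.6 to 33.5.

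All 4 sensors of viral nucleic acid were lower in both high RVSP mice than in both normal RVSP mice by their brightest probe set, as were 15.5% of all probe sets above the filter. Zbp1, a sensor of Z-form nucleic acid, read 107 and 92.8 in R899X high RVSP, 182 and 258 in R899X normal RVSP and 233 and 102 in control lungs, and its log2 difference of high against normal RVSP was -1.01 ± 0.37. A second probe set of Zbp1 above the filter read 80.7 and 22.5 in R899X high RVSP, 142 and 173 in R899X normal RVSP and 221 and 10.7 in control lungs. Its log2 range was 3.15. Control 1 was highest in it, R899X normal RVSP 2 next and R899X normal RVSP 1 after it, as in the GTPases. Dhx58 (LGP2) read 76.6 and 77.1 in R899X high RVSP, 124 and 153 in R899X normal RVSP and 134 and 101 in control lungs, at -0.73 ± 0.28. Its high RVSP values lay close to the filter. A probe set of Dhx58 below the filter went the other way, with 65.6 and 49.2 in R899X high RVSP and 29.7 and 21.9 in R899X normal RVSP. The remaining probe set, also below the filter, had a lower mean in high RVSP with overlap. By the brightest probe sets, control 2 was at the level of the high RVSP mice in Zbp1 and between the groups in Dhx58. Ifih1 (MDA5) read 1252 and 1378 in R899X high RVSP, 1639 and 1448 in R899X normal RVSP and 2027 and 1363 in control lungs. Ddx58 (RIG-I) varied least, between 820.5 and 995, and 2 of its 3 probe sets above the filter pointed the other way between high and normal RVSP.

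**Figure D2:**
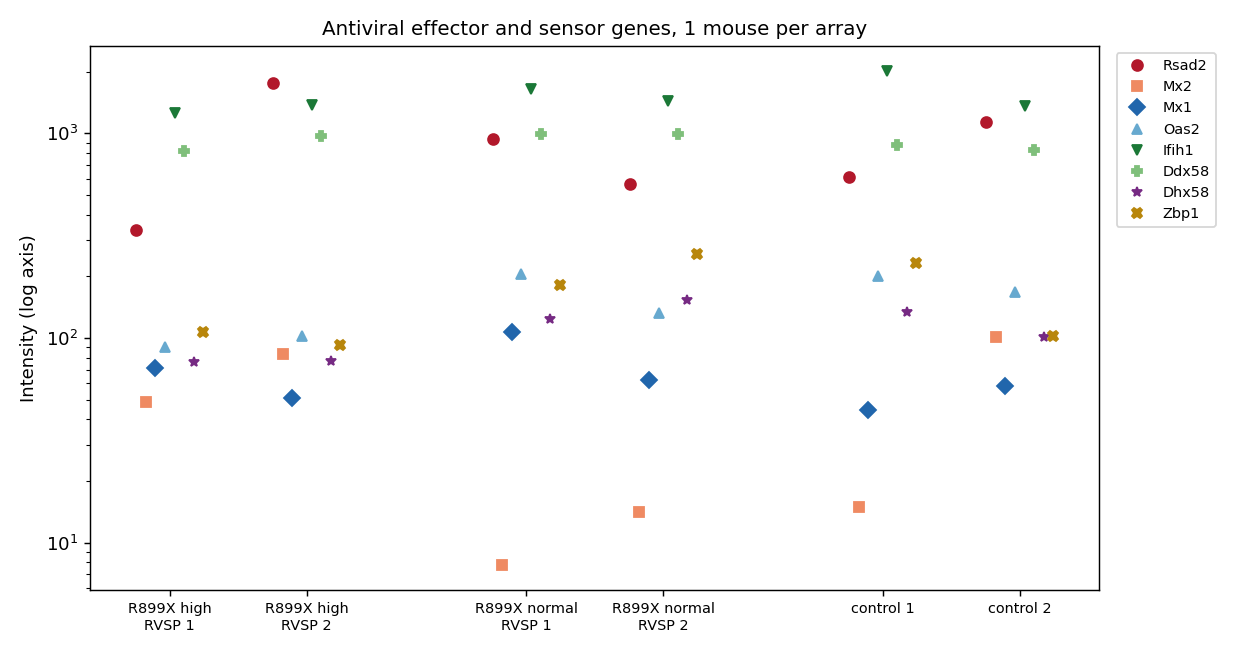
Intensity (log axis) of 4 antiviral effectors (Rsad2, Mx2, Mx1, Oas2) and 4 sensors (Ifih1, Ddx58, Dhx58, Zbp1) on each of the 6 arrays, 1 point per gene and mouse. R899X high RVSP 1 and 2 hold the lowest and the highest Rsad2 value, 337 and 1764, while both are lowest in Oas2, at 90.8 and 102.

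The regulators carry the interferon signal or limit it. Irf1, a transcription factor induced by interferon gamma, read 2524 and 2274 in R899X high RVSP, 3222 and 3564 in R899X normal RVSP and 3536 and 2797 in control lungs. Irf7, which amplifies type I interferon production, read 270.2 and 279 in R899X high RVSP, 397 and 407 in R899X normal RVSP and 363 and 287 in control lungs. In both genes the high RVSP mice were below all 4 others, with log2 differences of -0.50 ± 0.17 and -0.52 ± 0.21 from normal RVSP, and the controls differed from each other by 0.34 and 0.32. Stat2 read 312 and 289 in R899X high RVSP, 449.8 and 339 in R899X normal RVSP and 337 and 231 in control lungs. Irf9, its partner, ranged from 933 to 1191. Usp18, a protease that removes Isg15 from proteins and damps type I signalling, read 469 and 549.5 in R899X high RVSP, 623 and 574 in R899X normal RVSP and 429 and 463 in control lungs, with the controls as the lowest pair. In 5 of 5 regulators the arrays of high and normal RVSP did not overlap, and in 4 of 5 (Irf1 being the exception) those of normal RVSP lay above the controls. Over all probe sets above the filter, 15.5% were lower without overlap in high than in normal RVSP, and 14.4% were higher without overlap in normal RVSP than in control.

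The remaining 5 genes have less settled roles. Rtp4 read 940.0 and 1474 in R899X high RVSP, 1724 and 1758 in R899X normal RVSP and 1898 and 1055 in control lungs, with control 1 highest and R899X high RVSP 1 lowest. Parp14, an ADP-ribosyltransferase, ranged from 958 to 1509.9 and Ifi35 from 4819 to 6419.97 in their brightest probe sets, and both were lowest in the high RVSP mice. In the brightest probe sets of Rtp4, Parp14 and Ifi35, control 1 was highest, R899X normal RVSP 2 next and R899X normal RVSP 1 after it. The GTPases had the same order in these places. The other probe sets of Parp14 and Ifi35 above the filter had other orders. Xaf1 stayed between 1251 and 1528. Trim30a, a ubiquitin ligase of the tripartite motif family, read 1055 and 1258 in R899X high RVSP, 880.0 and 1532 in R899X normal RVSP and 654 and 1133 in control lungs, with control 1 as the lowest mouse. Its second probe set above the filter did not follow, with 452 and 504 in R899X high RVSP, 603 and 740.2 in R899X normal RVSP and 627 and 551 in control lungs.

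The GTPase and antiviral groups were then set side by side as scores, the mean log2 deviation of a group's genes from their 6-array means, with 1 probe set per gene (the brightest). The GTPase score was -0.90 and -0.55 in the R899X high RVSP mice, 0.11 and 0.78 in R899X normal RVSP and 1.26 and -0.70 in control lungs. The antiviral score, over 18 effectors and sensors, was -0.27 and -0.04 in the R899X high RVSP mice, 0.10 and 0.12 in R899X normal RVSP and 0.12 and -0.04 in control lungs. The GTPase score thus spanned 2.16 and the antiviral score 0.39. Their difference, GTPase minus antiviral, ran from -0.66 in control 2 to 1.13 in control 1. It was -0.64 and -0.51 in the R899X high RVSP mice and 0.0046 and 0.66 in the R899X normal RVSP mice. Within the antiviral group the score of the 4 sensors spanned 0.62 and that of the 14 effectors 0.33, while regulators spanned 0.46.

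**Figure D3:**
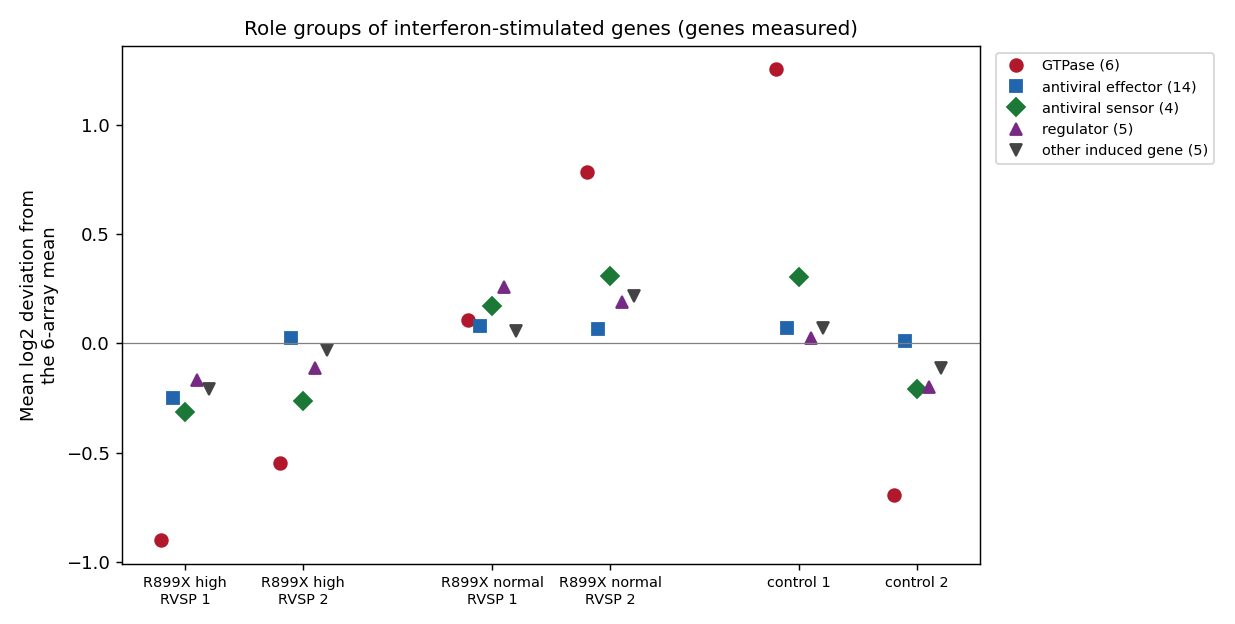
Mean log2 deviation from the 6-array mean for each role group of interferon-stimulated genes on each array; the number of genes measured is in the legend. The GTPase score spans from -0.90 in R899X high RVSP 1 to 1.26 in control 1, and the antiviral effectors stay between -0.25 and 0.08.

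In the comparison of R899X high RVSP with R899X normal RVSP, groups that both carry the transgene, 31 of 34 measured genes were lower in high RVSP. Their median log2 difference was -0.37, beside 0.0081 over all probe sets tested. It was -1.17 for the 6 GTPases and -0.36 for the 18 antiviral genes. The regulators had a median of -0.36 and the other induced genes of -0.28. Of the 49 probe sets above the filter, 34 were lower without overlap of the arrays, beside 15.5% of all probe sets. With limma 0 of 49 passed a Benjamini-Hochberg adjusted p of 0.05, and 0% of all 27022 did (smallest adjusted p = 0.9996). An unadjusted p under 0.05 occurred for 14 of the 49, 13 of them lower, beside 2.62% of all. The exception was a probe set of Samhd1, higher in high RVSP. The members were taken up because of this contrast, so these shares describe the choice. Of the 12 genes with at least 2 probe sets above the filter, 8 had all of them on the same side in this comparison, and Ddx58, Rsad2, Samhd1 and Xaf1 did not. Without R899X normal RVSP 2 the GTPase median was -0.89, and without R899X normal RVSP 1 it was -1.41. Without control 1 and R899X normal RVSP 1, which stood apart, 9 of the 49 probe sets passed, beside 0.207% of all, with the spread then taken from the high RVSP pair alone.

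Against control, the R899X high RVSP mice had lower means in 26 of 34 genes, with a median of -0.25 beside -0.0042 over all probe sets. The GTPase median was -0.98 and the antiviral median -0.21. Igtp, Ifi47 and Gbp3 were lower than both controls in both high RVSP mice, and Irgm1, Iigp1 and Gbp2 overlapped with control 2. Igtp differed by -1.39 ± 0.65 and Ifi47 by -1.06 ± 0.46. The values depended on which control was kept: without control 1 the GTPase median was -0.018 and the antiviral median -0.055, and without control 2 they were -1.91 and -0.33. Among the 49 probe sets 18 were lower without overlap, beside 18.2% of all probe sets. With limma 0 passed, and 0% of all (smallest adjusted p = 0.801). An unadjusted p under 0.05 was found for 3, beside 5.65% of all. Without the arrays that stood apart 0 of the 49 passed, beside 1.16% of all.

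Between R899X normal RVSP and control, 27 of 34 genes had higher means, with a median of 0.19 beside -0.00086 over all probe sets. The GTPase median was 0.18 and the antiviral median 0.16. None of the 6 GTPases separated the groups, since the normal RVSP mice lay between the controls in all of them. The largest differences among regulators were those of Stat2 at 0.46 ± 0.25 and Usp18 at 0.41 ± 0.18. Without control 1 the GTPase median was 1.11, without control 2 it was -0.74, and without R899X normal RVSP 2 it was -0.15. Of the 49 probe sets 10 were higher without overlap, beside 14.4% of all. With limma 0 passed, and 0% of all (smallest adjusted p = 0.987). An unadjusted p under 0.05 occurred for 0 of the 49 and 4.34% of all. Without the arrays that stood apart 10 of the 49 passed, beside 0.485% of all, with 1 mouse left in each of these groups. The comparisons share groups, so their values are given side by side and not as separate evidence.

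**Figure D4:**
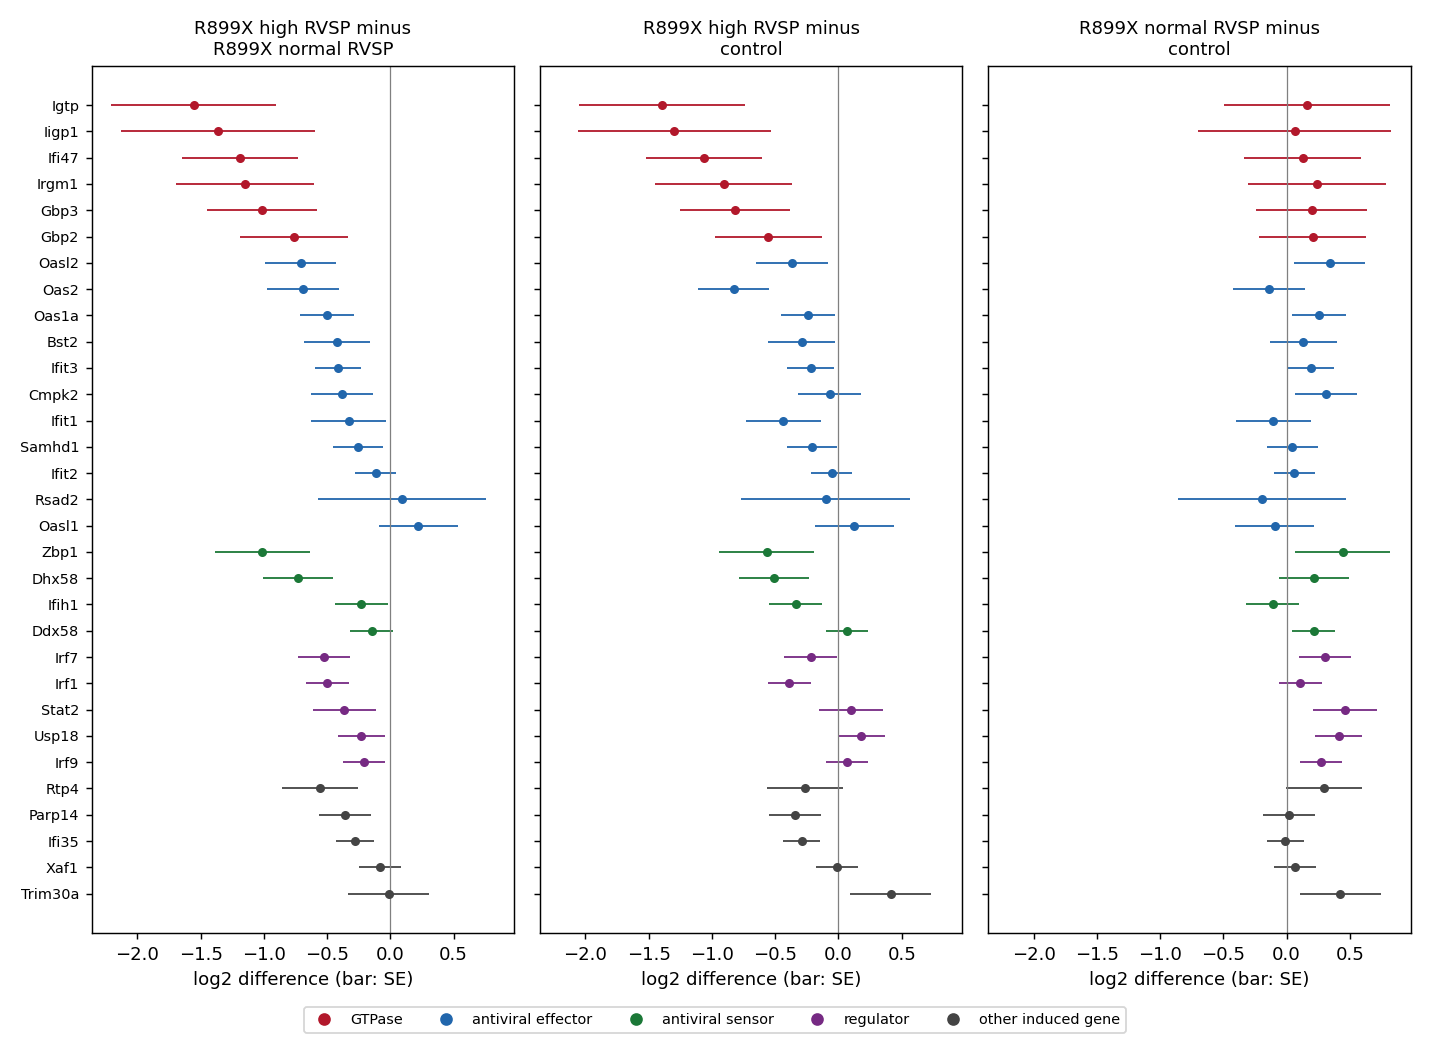
Log2 differences (points) with standard errors from limma (bars) for the 31 genes with their brightest probe set above the filter, ordered by role group; the panels show, from left to right, R899X high RVSP minus R899X normal RVSP, R899X high RVSP minus control and R899X normal RVSP minus control. In the left panel the GTPases lie between -1.55 for Igtp and -0.76 for Gbp2, with the sensor Zbp1 at -1.01 among them, and in the right panel they lie between 0.06 and 0.24.

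Other genes of the interferon pathway were taken from a list of ligands, receptors, signal carriers and further induced genes. The further GTPases of the same families varied as the measured ones did. Irgm2, the neighbour of Igtp on the chromosome and another regulatory GTPase, read 1285 and 1381 in R899X high RVSP, 3092 and 4860.4 in R899X normal RVSP and 6643 and 1434 in control lungs. Gbp6 read 842 and 717 in R899X high RVSP, 1337 and 2723 in R899X normal RVSP and 4075 and 732 in control lungs, and Gbp7, the neighbour of Gbp3, read 3348 and 3182 in R899X high RVSP, 4874 and 8793 in R899X normal RVSP and 12329 and 3520.3 in control lungs. In the brightest probe set of each of the 3 genes control 1 was highest, and both high RVSP mice and control 2 formed the low end. A second probe set of Gbp7 above the filter read 949 and 983 in R899X high RVSP, 802 and 3344 in R899X normal RVSP and 3078 and 943 in control lungs, so that R899X normal RVSP 2 was highest and R899X normal RVSP 1 lowest there. Their log2 differences of high against normal RVSP were -1.53 ± 0.59, -1.28 ± 0.68 and -1.001 ± 0.51.

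Of 36 further induced genes measured, 31 had a lower mean in high RVSP than in normal RVSP, with a median of -0.23, and 0 of the 34 above the filter passed over all probe sets, with 1 at an unadjusted limma p under 0.05, beside 2.62% of all probe sets. The ones with the widest range were Nlrc5, Ciita, Ido1 and Ifi27l2a. Nlrc5, a transactivator of MHC class I genes, read 409.8 and 362 in R899X high RVSP, 764 and 927 in R899X normal RVSP and 1461 and 395 in control lungs. Ciita, which does the same for class II, read 168 and 153 in R899X high RVSP, 221 and 304 in R899X normal RVSP and 524 and 159 in control lungs. Ido1, an enzyme that breaks down tryptophan and is induced by interferon gamma, read 121 and 102 in R899X high RVSP, 129.9 and 214 in R899X normal RVSP and 322 and 93.6 in control lungs. In these brightest probe sets control 1 was highest and R899X normal RVSP 2 the next. Both other probe sets of Ciita above the filter were highest in R899X normal RVSP 2, at 329 and 165, against 209.9 and 115 in control 1. Ifi27l2a, a gene of the type I response, ran otherwise, with 509 and 765 in R899X high RVSP, 1023 and 791 in R899X normal RVSP and 324 and 641 in control lungs, so that control 1 was lowest.

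**Figure D5:**
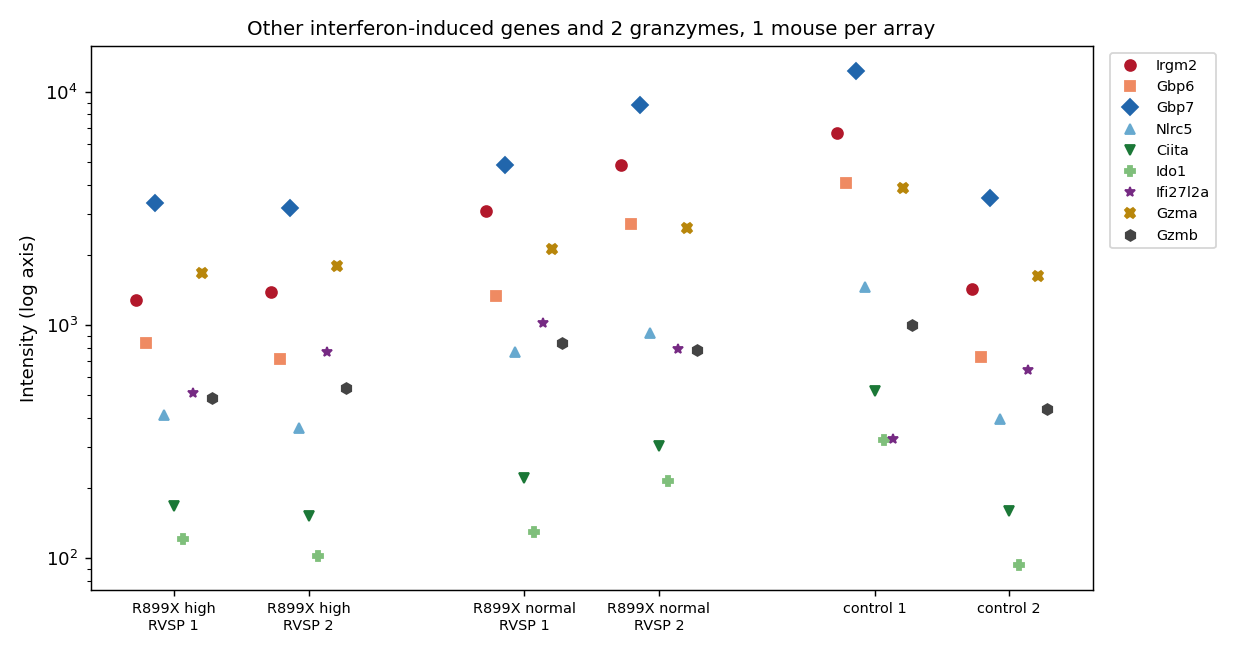
Intensity (log axis) on each of the 6 arrays of 3 further GTPase genes (Irgm2, Gbp6, Gbp7), of the induced genes Nlrc5, Ciita, Ido1 and Ifi27l2a, and of the granzyme genes Gzma and Gzmb, 1 point per gene and mouse. Control 1 is highest in all of them except Ifi27l2a, where it is lowest at 324.

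Receptors and signal carriers showed no such order. The 6 receptor genes had a median log2 difference of 0.08 between high and normal RVSP, with 2 lower and 4 higher. Ifngr2, a chain of the interferon gamma receptor, read 368 and 459 in R899X high RVSP, 366 and 409 in R899X normal RVSP and 164 and 393 in control lungs, lowest in control 1. Its second probe set above the filter read 339 and 276 in R899X high RVSP, 273 and 251 in R899X normal RVSP and 324 and 204 in control lungs, lowest in control 2. Ifnar1, of the type I receptor, ranged from 688 to 1139.97, Ifnlr1, of the type III receptor, from 303 to 503, and Ifngr1 from 1554 to 2243. The 21 measured signal carriers and regulators had a median of -0.01, with 11 lower and 10 higher, and in both lists 0 genes passed over all probe sets. At an unadjusted limma p under 0.05, which 2.62% of all probe sets had, there were 0 and 1, that gene being Tlr9, a sensor of DNA in endosomes, with 135 and 117 in R899X high RVSP, 65.7 and 74.5 in R899X normal RVSP and 96.0 and 92.8 in control lungs. Ligands were dim: of 9 interferon genes 7 had a probe set and 0 of these lay above the filter. Ifng, which encodes interferon gamma and was singled out after its values were seen, read 21.0 and 19.7 in R899X high RVSP, 43.0 and 51.6 in R899X normal RVSP and 58.0 and 22.7 in control lungs. The first 3 places of the mice in Ifng were those of the GTPases, at values below the filter, where detection was not assessed. Control 1 was highest in 5 of the 7 measured interferon genes, Ifng included, so that place was not particular to Ifng.

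NK cells release interferon gamma. The score of the markers of this cell type was highest in control 1, then in R899X normal RVSP 2 and R899X normal RVSP 1, as the GTPase score was. In whole lung, fewer cells of a type and less RNA per cell cannot be told apart. The summed intensity of the 8 measured NK markers was 4337 and 4398 in the R899X high RVSP mice, 5095 and 5911 in R899X normal RVSP and 7498 and 3843 in control lungs. Control 1 exceeded control 2 in 8 of 8 and was the highest mouse in 4 of 8. It also exceeded control 2 in 5 of 5 plasmacytoid dendritic cell, 7 of 8 macrophage and 6 of 7 alveolar epithelial markers, but in 2 of 7 endothelial ones. A lower mean in high than in normal RVSP was found for 7 of 8 NK markers, beside 48.3% of all probe sets. Without overlap 4 of 8 were lower, beside 15.5% of all. None of the NK markers was at 0 on any array. Gzma, a granzyme of NK and killer T cells, read 1666 and 1793 in R899X high RVSP, 2122 and 2609 in R899X normal RVSP and 3877 and 1624 in control lungs, and Gzmb read 486 and 538 in R899X high RVSP, 835 and 781 in R899X normal RVSP and 1002 and 439 in control lungs. Eomes, a transcription factor of NK and killer T cells, ranged from 139.7 to 328, and the receptor gene Klrk1 from 174 to 373, with control 1 above control 2 in both. Ncr1, the receptor that defines NK cells, was added after its values were seen and read 417 and 372 in R899X high RVSP, 347 and 468 in R899X normal RVSP and 464 and 334 in control lungs, and its log2 difference of high against normal RVSP was -0.03 ± 0.24. T cell markers took another course, with scores of 0.20 and 0.17 in the R899X high RVSP mice, -0.24 and 0.08 in R899X normal RVSP and -0.10 and -0.11 in control lungs. The NK marker score spanned 0.73 over the 6 mice, against 2.16 for the GTPases. The scores of plasmacytoid dendritic cell, macrophage, neutrophil, B cell, endothelial, alveolar epithelial and airway epithelial markers spanned between 0.33 and 0.83. That of cardiac muscle markers spanned 1.59, lowest in R899X high RVSP 2 at -1.04. The 6 cardiac muscle markers had a lower mean in high than in normal RVSP in 6 of 6, by a median of -0.87, with summed intensities of 19435 and 9600.3 in high RVSP, 28275 and 20407 in normal RVSP and 23653 and 20879 in control lungs. The beta-actin 3′/5′ ratio was highest in control 1, as the GTPases were, but second in R899X normal RVSP 1 and not in R899X normal RVSP 2. The part of NK cells, of other cell types and of RNA quality in the interferon values was not tested.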

How the data were processed

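The deposited file of each array holds linear intensities, 1 for each probe set. How the authors summarised the probes is not stated in the sources used here. The mean intensity trimmed by 2% at each end was 500.0 on every array, so the authors' values carry a common scaling. Per the labels' protocols, mice received heparin, and RNA of the saline-flushed right lung was biotin-labelled. Each array came from an individual mouse; replicates 1 and 2 follow accession order only, and no batch or pairing is named.

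Values were taken as log2(intensity + 16), which understates differences of dim probe sets. Control probe sets (64) and the 18015 in the lower 40% by mean (below about 74.9) were left out, leaving 27022; this kept 49 of the 55 probe sets and 31 of the 34 genes. The 6 arrays were fitted together with limma 3.58.1 in R 4.3.3, with a mean for each group (3 residual and 5.06 prior degrees of freedom, intensity trend), and Benjamini-Hochberg adjusted p-values over all 27022 were held to 0.05. The fit was tested on simulated data. Exact permutation of 2 against 2 mice cannot reach that threshold and was not used.

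All 55 probe sets matched a RefSeq gene by gene identifier, with 0 symbols changed. Coordinates are given for promoter windows only, since the files state no build for probes. The members, role groups, gene lists and naming rule (the GTPases and up to 4 genes per other group with the widest range) were chosen with earlier results of these data known. Alternatives changed the pseudocount (1 or 64), normalization, filter, probe set choice, variance model and arrays used.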

Additional observations from a re-analysis of the deposited data

How the results depend on the processing

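Between R899X high and normal RVSP, the GTPase median (-1.17), the antiviral median (-0.36) and their difference (-0.81) moved by less than the spread within groups under every alternative run: pseudocounts of 1 or 64, quantile normalization, members above the filter only, the mean over all probe sets of a gene, and leaving out any 1 array. That spread was 0.86 for the GTPase score and includes the control pair, which does not enter this comparison. Leaving out a control cannot change these medians, and leaving out another array gave GTPase medians from -1.41 to -0.89. The same alternatives, without those that leave out an array, did not move the values against control beyond the spread within groups. Leaving out 1 array gave, for high RVSP against control, GTPase medians from -1.91 to -0.018, antiviral medians from -0.33 to -0.055 and differences between them from -1.58 to 0.037. For normal RVSP against control it gave GTPase medians from -0.74 to 1.11, antiviral medians from 0.014 to 0.24 and differences from -0.76 to 0.87; the lowest and highest of each belong to the fits without control 2 or control 1. Without control 1 and R899X normal RVSP 1 together, chosen after seeing the data, the medians against control were -0.018 (GTPase) and -0.055 (antiviral), 0.037 apart, for high RVSP, and 1.38 for the GTPases of normal RVSP, 1.11 above the antiviral median. In that limma fit 9 of the 49 probe sets passed (beside 0.207% of all probe sets) for high against normal RVSP, 0 (beside 1.16%) for high RVSP against control and 10 (beside 0.485%) for normal RVSP against control. The spread there comes from the R899X high RVSP pair alone, the closest of the within-group pairs, and the lone mice are assumed to vary like it. Under all other fits, including the ordinary linear model, 0 of the 49 passed in each comparison. With 2 mice per group, the number of mice limits every value. No paired analysis was possible because the labels give no number that pairs mice across groups.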
